A study of Homo sapiens with 28 samples.

Results

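Across the 6 myeloma cell lines profiled with and without lenalidomide, 1189 of 154985 accessible regions were lower with the drug in every line. The members were selected on read density: CPM (a region's reads scaled to a common library total of all reads counted in regions), taken as log2(CPM + 1), lenalidomide minus untreated. A region had to average a CPM of 3 or more over the 12 paired libraries, a minimum that 59431 regions met, to lie below 0 in all 6 pairs, and to have a mean difference of -0.5 or less. Of the regions at the minimum, 2400 were below 0 in all 6 pairs (4.04%) and 1189 were members (2.0%), so both the sign and the size of the members' differences come from the selection and are given as a description only. The mirrored rule, above 0 in all 6 pairs with a mean of 0.5 or more, found 1794 regions (3.02%), used here as a comparison.

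The assay was ATAC-seq, in which the Tn5 transposase inserts sequencing adapters where DNA is not wrapped in nucleosomes, so that read density measures how accessible a region is. Karpas620, KMS27, L363, MM1S, OPM2 and RPMI8226 were each assayed once untreated and once after 10 µM lenalidomide, analysed on day 3, and 16 further lines were assayed untreated only (H1112, KMS11, KMS12BM, KMS12PE, KMS18, KMS20, KMS21BM, KMS26, KMS28, KMS34, LP1, OCIMY5, PCM6, PE1, U266 and XG-6). All are established cell lines derived from plasma cell cancers, the untreated libraries are labelled as having had no treatment, and no vehicle is named. Because every line has 1 library per condition, the cell line is the replicate, and the spread given is the spread between lines.

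Lenalidomide binds cereblon, the substrate receptor of a ubiquitin ligase, and directs that ligase to the zinc finger transcription factors Ikaros (IKZF1) and Aiolos (IKZF3), which are then degraded. Ikaros proteins bind DNA at sites with a short core word and can both activate and repress genes in the lymphoid lineage. Plasma cells keep many enhancers open that are bound by factors such as IRF4, the octamer factors with their coactivator, and AP-1 proteins, and ATAC-seq reads promoters and such distal elements alike.

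A few windows show what the members look like as sequence: the first 3 distal members by size of difference that could be printed, a promoter member among the lowest, and the member with the highest CPM in the other 16 lines. Each is the centre of the region in GRCh37, on the plus strand, 5′ to 3′. Capitals mark the Ikaros core word GGGAA or its reverse TTCCC and the AP-1 word TGANTCA, where N is any base.
IFNAR1 upstream region, chr21:34693865-34694076: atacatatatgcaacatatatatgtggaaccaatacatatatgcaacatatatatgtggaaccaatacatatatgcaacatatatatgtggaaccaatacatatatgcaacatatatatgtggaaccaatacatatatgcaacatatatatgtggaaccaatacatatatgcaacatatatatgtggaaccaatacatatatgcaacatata
AC079781.7 region, chr7:97544764-97545063: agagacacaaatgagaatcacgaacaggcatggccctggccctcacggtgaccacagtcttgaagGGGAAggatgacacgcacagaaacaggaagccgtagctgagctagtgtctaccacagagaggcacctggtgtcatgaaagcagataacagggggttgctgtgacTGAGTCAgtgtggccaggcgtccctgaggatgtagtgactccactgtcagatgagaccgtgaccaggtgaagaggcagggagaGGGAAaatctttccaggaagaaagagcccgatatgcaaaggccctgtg
APLP2 intron region, chr11:129988181-129988480: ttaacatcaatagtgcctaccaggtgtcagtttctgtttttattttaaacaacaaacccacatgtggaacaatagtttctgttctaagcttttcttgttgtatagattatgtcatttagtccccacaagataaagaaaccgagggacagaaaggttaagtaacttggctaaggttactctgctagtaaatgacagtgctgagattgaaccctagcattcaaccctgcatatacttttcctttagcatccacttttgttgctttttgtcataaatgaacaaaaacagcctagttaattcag
AFAP1 promoter region, chr4:7865708-7866007: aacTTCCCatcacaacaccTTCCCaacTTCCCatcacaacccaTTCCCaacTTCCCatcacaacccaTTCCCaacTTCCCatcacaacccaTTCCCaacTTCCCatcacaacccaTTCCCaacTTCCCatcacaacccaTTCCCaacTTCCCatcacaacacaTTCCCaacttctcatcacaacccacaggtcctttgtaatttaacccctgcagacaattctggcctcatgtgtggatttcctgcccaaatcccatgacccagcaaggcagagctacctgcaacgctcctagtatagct
AIM2 promoter region, chr1:159046816-159047115: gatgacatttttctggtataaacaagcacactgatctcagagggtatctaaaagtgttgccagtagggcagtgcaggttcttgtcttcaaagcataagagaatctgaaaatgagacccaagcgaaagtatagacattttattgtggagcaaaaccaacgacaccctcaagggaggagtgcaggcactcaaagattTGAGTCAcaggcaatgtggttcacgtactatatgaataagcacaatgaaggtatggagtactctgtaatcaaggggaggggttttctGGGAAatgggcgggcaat
The IFNAR1 window is a tandem repeat: every base equals the base 32 positions further on, and GC made up 27.4% of it. The AFAP1 window begins with a shorter repeat (71.7% of positions in the whole window equal the base 24 further on) and holds 14 of the capitalised Ikaros words. The IFNAR1 and APLP2 windows hold no Ikaros word, and those of AC079781.7 and AIM2 each hold 1 AP-1 word.

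The libraries held between 1599857 and 5564534 counted reads, and the 12 paired libraries between 1916890 and 4248017. Within 5 pairs the totals were within 1.154 times of each other, whereas the RPMI8226 lenalidomide library was 2.006 times as deep as its untreated partner. Regions at the starts of plasma cell genes were called as peaks in nearly all of the 28 libraries: SDC1 and CD38 in 27, TNFRSF17 and PRDM1 in 28, MZB1 in 25, XBP1 in 24 and IRF4 in 23, but SLAMF7 in 3. The starts of the T cell genes CD3E and LCK were called in 1 and 2 libraries, and CD3D, CD14 and CSF1R, read at the nearest region, in 3, 4 and 2. Of the other markers of T, myeloid, erythroid and fibroblast cells, HBA1, PDGFRB and COL1A2 were called in 4, 6 and 7 libraries, and GATA1 had no region. The rest were called more widely, namely CD2 in 14, LYZ in 11, CD68 in 10, HBB in 13, KLF1 in 19 and COL1A1 in 27 libraries. Accessibility at these widely called regions does not separate cell types here. The regions read for CD2, LYZ and KLF1 lay 9690, 16794 and 1361 bases from the start. None of the 22 marker regions read was a member.

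In each pair the members' median difference lay between -0.53 and -0.80. It was -0.69 in Karpas620, -0.53 in KMS27, -0.66 in L363, -0.64 in MM1S, -0.80 in OPM2 and -0.54 in RPMI8226, while the median over all 59431 regions lay between -0.05 and 0.02. The summed CPM of the members with lenalidomide was 0.585 times the untreated sum in Karpas620, 0.671 in KMS27, 0.618 in L363, 0.625 in MM1S, 0.524 in OPM2 and 0.684 in RPMI8226. OPM2 had the largest difference of the 6 lines at 310 members (26.1%) and KMS27 at 103 (8.66%). Over the members, the mean difference had a median of -0.67 and reached -1.64, and 80 members had a mean of -1 or less.

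**Figure D1:**
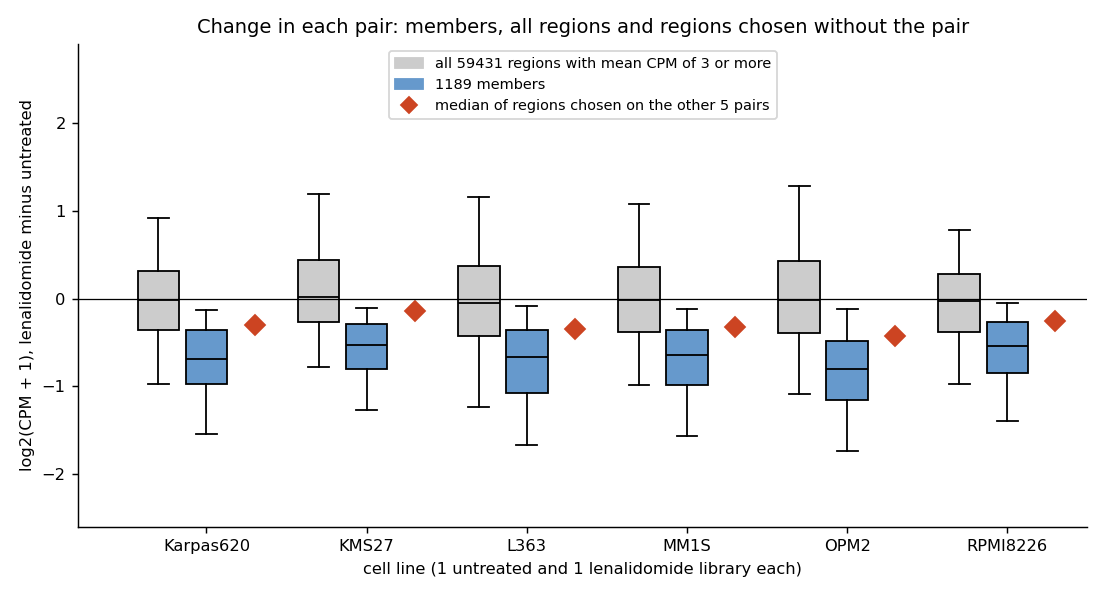
The difference in log2(CPM + 1), lenalidomide minus untreated, in each of the 6 pairs, for all 59431 regions (grey) and the 1189 members (blue); boxes span the 25th to 75th percentile with the median as a line, and whiskers the 5th to 95th. Red diamonds give the median, in that pair, of regions selected on the other 5 pairs, which lies between -0.43 (OPM2) and -0.15 (KMS27). It is nearer 0 than the members' own median in every pair, an order favoured by selecting the members on that pair too.

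The size of the difference was also read in a pair that took no part in the choice. The rule was applied to 5 pairs and the regions it found were read in the sixth. With Karpas620 left out of the choice, 1679 regions were chosen and their median difference in Karpas620 was -0.30. The corresponding medians were -0.15 in KMS27 (2123 regions), -0.35 in L363 (1658), -0.33 in MM1S (1571), -0.43 in OPM2 (1476) and -0.25 in RPMI8226 (1713). All 6 lay below the median of all regions in the same pair, which was between -0.05 and 0.02.

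The pair that had not been used showed a median of 47.2% of the difference seen in the 5 pairs that chose the regions, with a range from 21.6% in KMS27 to 65.7% in OPM2. Between 55.8% (KMS27) and 72.1% (L363) of the chosen regions were below 0 in the unused pair, beside 42.4% and 53.8% of all regions in those pairs. The 6 lists share pairs with each other, so no p-value is given over them. The members' own differences were larger than those read in the unused pair in 6 of 6 lines. That order is favoured by the rule and is given as a description only. Members had to be below 0 in every pair, while the regions chosen on 5 pairs carried no condition on the unused one. The sets of regions also differ.

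Part of the members' peaks were no longer called with the drug. Peaks were called in the same libraries that selected the members for lower read density. Fewer calls among the members thus follow from the selection and are given as a description only. The members called as peaks made up between 25.8% and 61.7% of the 1189 in the untreated libraries of the 6 lines and between 18.8% and 46.4% in the lenalidomide libraries. Over all 59431 regions these shares were 31.4% to 54.9% untreated and 42.5% to 59.7% with lenalidomide, higher with the drug in 5 of 6 pairs. In Karpas620 the share went from 37.0% to 18.8%, in KMS27 from 55.9% to 39.7%, in L363 from 25.8% to 20.1%, in MM1S from 61.7% to 46.4% and in OPM2 from 48.5% to 24.7%. RPMI8226 differed, with 28.3% untreated and 29.5% with lenalidomide, in the pair whose treated library was 2.006 times as deep; the part of depth in that value was not tested. In OPM2, 288 of the 577 members called untreated had no peak with lenalidomide, and in Karpas620 218 of 440. Over all regions the share called was 41.7% untreated and 42.5% with lenalidomide in OPM2, and 47.3% and 45.4% in Karpas620. Those are net shares, in which lost and gained peaks offset each other. The peaks lost among all regions called untreated were not counted, so the members' losses have no like value beside them. Of the members, 667 were called in fewer lenalidomide than untreated libraries, 483 in as many and 39 in more, whereas of all regions 8366 were called in fewer, 31253 in as many and 19812 in more. A peak in none of the 6 lenalidomide libraries was found for 210 members (17.7%), against 55 (4.63%) in none of the untreated ones, and over all regions these shares were 5.66% and 11.4%. In these bulk libraries, fewer cells with a region open and less open chromatin per cell cannot be told apart.

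The fit across all regions was made with edgeR, with the cell line as a block. It tested 37732 regions that passed its filter on low counts, 679 of the 1189 members among them, and called 461 regions lower at an adjusted p below 0.05 (1.22%). Of these 461, 263 were members (57.0% of the called regions and 38.7% of the members tested). This count uses the contrast that selected the members and adds nothing to it. The 510 members below the filter were not tested. A member had a median of 9 to 25 reads in the untreated libraries and 5 to 13 in the lenalidomide ones, so 1 region in 1 pair carries a wide counting error.

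The 8 members with the lowest mean difference were mostly of modest read density. The lowest was an intergenic region 17.9 kb from the start of the non-coding gene RP11-775B15.3 (chr8:120510952-120511398), with an untreated CPM of 5.20 in Karpas620, 12.1 in KMS27, 9.69 in L363, 9.61 in MM1S, 5.74 in OPM2 and 4.72 in RPMI8226. Its lenalidomide CPM in the same order was 3.91, 2.05, 0.461, 2.54, 0.904 and 1.65. The groups did not overlap, the highest treated line (Karpas620) standing below the lowest untreated one (RPMI8226), and the mean difference was -1.64 ± 0.87 (SD, n = 6). Only 6 members had groups that did not overlap, and the same 6 were all such regions among the 59431 at the minimum (0.0101%).

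The repeat region 2.66 kb upstream of IFNAR1 (chr21:34693865-34694076), which encodes a subunit of the type I interferon receptor, had untreated CPM of 5.20 in Karpas620, 5.73 in KMS27, 7.65 in L363, 13.05 in MM1S, 2.61 in OPM2 and 4.72 in RPMI8226. With lenalidomide the values were 0.783, 1.37, 0.461, 2.18, 2.26 and 2.12. The groups again did not overlap, but OPM2 was nearly level. These values rest on 100 untreated and 27 lenalidomide reads in all. The region was called as a peak in 1 untreated paired library and in none of the other 16 lines, whose CPM ran from 0 to 5.79.

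GALNT5, an enzyme that starts mucin-type O-glycosylation, had the promoter member with the lowest mean difference. Untreated CPM was 2.08 in Karpas620, 34.4 in KMS27, 9.69 in L363, 32.3 in MM1S, 28.2 in OPM2 and 2.36 in RPMI8226, and the lenalidomide values were 0, 13.7, 3.23, 9.07, 10.4 and 0.235. The 3 lines with the most open promoter, KMS27, MM1S and OPM2, were also the highest with the drug, and the groups overlapped because the lines differed more than the treatment did. On the log2(CPM + 1) scale the difference was -1.46 ± 0.18 (SD, n = 6), but that evenness depends on the pseudocount where a line is near 0, as Karpas620 and RPMI8226 are, and with a pseudocount of 0.1 the mean was -2.24. All 16 other untreated lines had a peak there, with CPM from 7.85 (KMS18) to 38.4 (KMS12PE). A further member lay close by.

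The other members of the lowest 8 were regions nearest AC079781.7 (chr7:97544630-97545197, mean difference -1.44 ± 0.66), APLP2 (an intron, chr11:129987992-129988668, -1.30 ± 0.79), AC011288.2 (an intron, chr7:13199059-13199906, -1.23 ± 0.58), and the promoters of CFHR4, a complement factor H-related protein (chr1:196856962-196857463, -1.27 ± 0.52), and of AFAP1, an adaptor on actin filaments (chr4:7865605-7866109, -1.22 ± 0.88; SD, n = 6 for each). CFHR4 was led by KMS27, at 50.6 untreated and 25.3 with lenalidomide, while its untreated CPM in the other 5 lines was between 2.36 and 6.63. The AFAP1 region counts as a promoter by an annotated transcript start 1.57 kb away. It lies inside the gene, 7696 bases from the nearest protein-coding start. At AFAP1, L363 went from 13.8 to 0.922 and no other line came near that difference. The remaining promoter members in the lowest 5 were nearest RP11-53B2.4, inside LDLRAD4 (chr18:13567427-13568262, -1.14 ± 0.83), and RP4-725K1.1 (chr1:145090190-145090686, -1.11 ± 0.39). In each of these regions the values of the 2 groups overlapped.

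**Figure D2:**
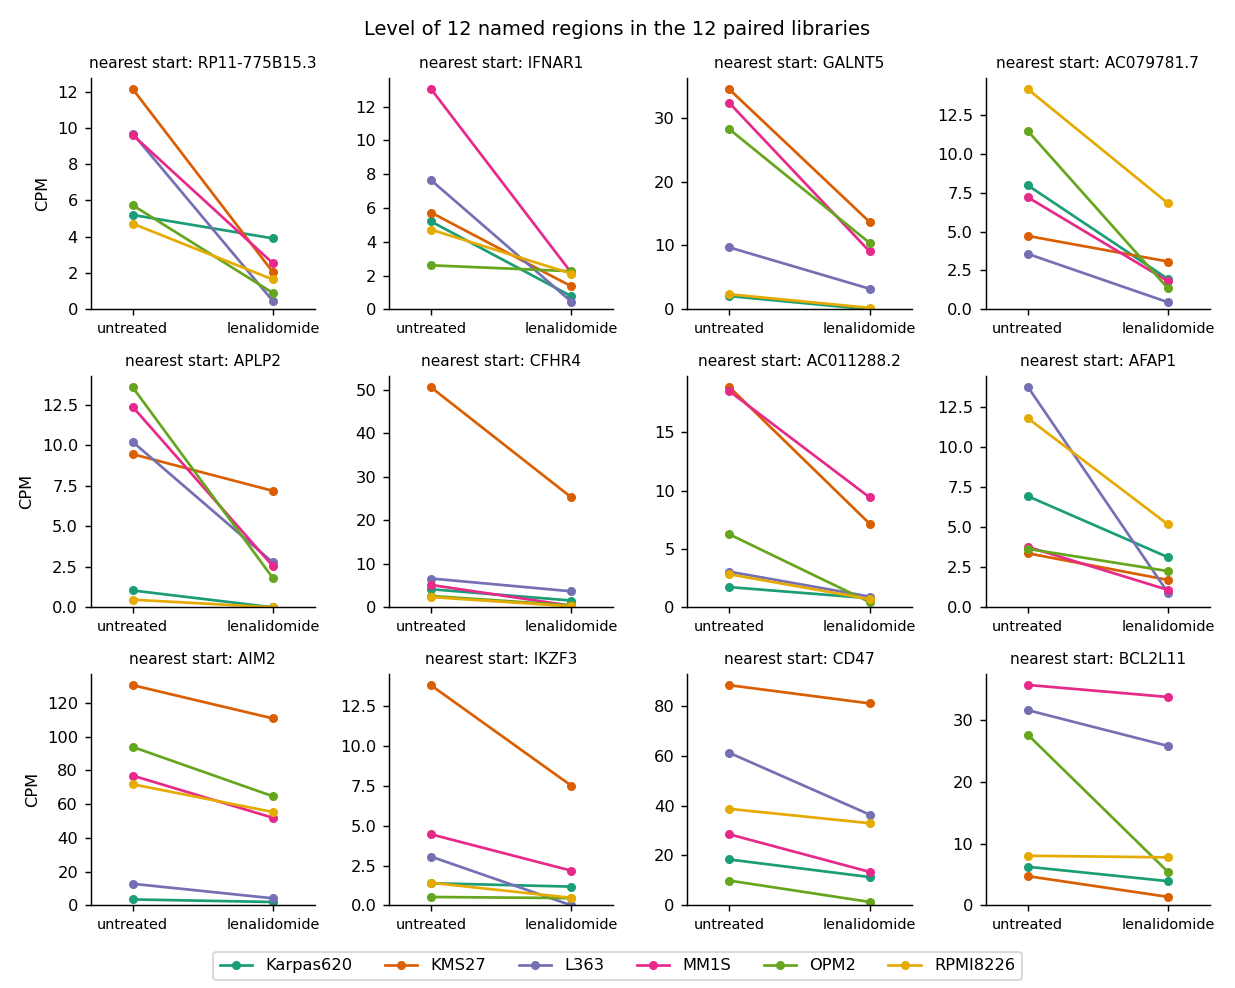
CPM of 12 named members in the untreated and lenalidomide library of each of the 6 lines, 1 line per colour, each panel on its own axis from 0: the 8 members with the lowest mean difference, AIM2, and the members nearest IKZF3, CD47 and BCL2L11. Every line slopes down by selection, and at most regions the spread between lines is wider than the step within a line.

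The members with the highest CPM in the other 16 lines were strong, widely open elements with smaller differences. The AIM2 promoter (chr1:159046251-159047680), at a gene for a sensor of cytosolic DNA that assembles an inflammasome, had untreated CPM of 3.47 in Karpas620, 131 in KMS27, 12.7 in L363, 76.9 in MM1S, 93.9 in OPM2 and 71.8 in RPMI8226. The lenalidomide values were 1.96, 111, 4.15, 51.9, 64.7 and 55.3. Karpas620 and L363 had little accessibility there in either condition and the groups overlapped widely. In the other 16 lines CPM ran from 29.9 in XG-6 through a median of 93.8 to 142 in KMS20, and all 16 had a peak.

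The region 125 bases from the start of KLF9, a zinc finger factor induced by glucocorticoids (chr9:73028527-73029414, exonic), had untreated CPM of 60.0, 82.0, 76.0, 60.4, 76.2 and 20.8 in Karpas620, KMS27, L363, MM1S, OPM2 and RPMI8226. With lenalidomide it had 37.2, 52.7, 53.0, 47.9, 40.2 and 17.9. RPMI8226 was the lowest line in both conditions, and without regard to pairs only its values kept the groups from standing apart. KLF9 was called in 15 of the 16 other lines. Regions in introns of GALNT2 (chr1:230258986-230260068) and TRANK1 (chr3:36953619-36954436) and upstream of CCDC110 (chr4:186400595-186401726) were called in all 6 untreated and all 6 lenalidomide libraries and in all 16 other lines, with mean differences of -0.55 ± 0.29, -0.55 ± 0.22 and -0.67 ± 0.45 (SD, n = 6).

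Members near genes of known role in myeloma are given by list, and the counts are small. The share of members was 2.0% over all regions, and 4% in the Ikaros family and cereblon ligase list, 2.53% for plasma cell identity, 4.55% for adhesion and surface antigens, 2.47% for the cell cycle, 2.44% for the BCL2 family and 2.70% for IL6 and JAK-STAT, so that each list lay within a few regions of the share over all regions. Of 25 regions at the CPM minimum whose nearest start belonged to the Ikaros family or the cereblon ligase, 1 was a member, at an annotated transcript start of IKZF3 (chr17:37934132-37934789). Whether that is the gene's main start was not tested. The region's untreated CPM was 1.39 in Karpas620, 13.8 in KMS27, 3.06 in L363, 4.46 in MM1S, 0.522 in OPM2 and 1.42 in RPMI8226, and with lenalidomide 1.17, 7.53, 0, 2.18, 0.452 and 0.471. KMS27 stood above the other 5 lines in both conditions and the groups overlapped. Without L363, which had no reads there with lenalidomide, the mean difference of -0.75 became -0.50. The region is weakly open: it was called in 1 untreated and 1 lenalidomide library of the 6 lines and in 3 of the 16 others, and it rests on 68 untreated and 34 lenalidomide reads.

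Among 79 regions near plasma cell identity genes, 2 were members. POU2AF1 encodes the coactivator of the octamer factors, and its member (chr11:111307302-111307813, at a promoter) had untreated CPM of 14.9 in Karpas620, 12.8 in KMS27, 8.67 in L363, 26.1 in MM1S, 12.5 in OPM2 and 14.2 in RPMI8226. The lenalidomide values were 4.30, 9.58, 5.53, 18.1, 8.14 and 13.4, so that Karpas620 had the largest step and RPMI8226 hardly any. This region lies 1.53 kb from an annotated transcript start but 12893 bases from the nearest protein-coding one. The other was a region 4.75 kb from the start of IGJ (also named JCHAIN), the chain that joins IgM and IgA monomers (chr4:71527052-71527454, -0.78 ± 0.35).

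Adhesion and surface antigen genes had 4 members among 88 regions. The region 9.68 kb from CD47, the surface protein that signals against phagocytosis (chr3:107819555-107820547), had untreated CPM of 18.4 in Karpas620, 88.4 in KMS27, 61.2 in L363, 28.5 in MM1S, 9.91 in OPM2 and 38.7 in RPMI8226. With lenalidomide it had 11.3, 81.1, 36.4, 13.4, 1.36 and 33.0, the proportional step being largest in OPM2 and small in KMS27 and RPMI8226. The LY9 promoter, at a SLAM family receptor (chr1:160765578-160766293), had a more even difference of -0.73 ± 0.25, and the members at CD44, the hyaluronan receptor (an intron, chr11:35186866-35188063), and CXCR4, the chemokine receptor for marrow homing (chr2:136864981-136865762), had -0.70 ± 0.53 and -0.59 ± 0.57 (SD, n = 6). Without Karpas620 the mean at CXCR4 was -0.39. At CD44 RPMI8226 had a CPM of 0.944 untreated and 0.942 with lenalidomide, so that line was level.

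Cell cycle genes had 2 members among 81 regions: an intronic region of CDK6, a kinase of the G1 phase (chr7:92398047-92398799, -0.93 ± 0.56), and a region 7.02 kb from CCNE1, the cyclin E1 gene (chr19:30295359-30295786, -0.91 ± 0.41). The BCL2 family had 1 among 41, in an intron of BCL2L11, which encodes the pro-apoptotic protein BIM (chr2:111914628-111915838). There OPM2 went from 27.6 to 5.43 and KMS27 from 4.72 to 1.37, while MM1S (35.7 and 33.8) and RPMI8226 (8.03 and 7.77) were almost level, and the mean of -0.73 became -0.45 without OPM2. The IL6 and JAK-STAT list had 1 among 37, at the promoter of PTPN6, a phosphatase that restrains cytokine signalling (chr12:7058550-7058843, -0.67 ± 0.43).

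No member lay nearest a gene of the B cell program (43 regions), the interferon response (37), the NF-kB pathway (40), the unfolded protein response and secretion (47), the AP-1, BATF and MAF factors (46) or sterol and lipid synthesis (21), lists so short that a share of 2.0% amounts to less than 1 region in each. The median mean difference over a list's regions, members or not, was between -0.10 (unfolded protein response and secretion) and 0.31 (interferon response), beside -0.02 over all regions. Of the 37 interferon response regions, 7 met the mirrored rule. Assigning regions to the nearest protein-coding start instead gave these lists more regions and moved some counts. The unfolded protein response had 3 members of 116 regions (2.59%, near CREB3L2, DNAJB9 and PDIA6) and the AP-1 list 2 of 98 (2.04%, near JUN). The interferon response had 1 of 56 (1.79%, RSAD2), the NF-kB pathway 1 of 73 (1.37%, NFKBIA) and sterol and lipid synthesis 1 of 37 (2.70%, INSIG1). Plasma cell identity had 4 of 137 (2.92%, near ELL2, JCHAIN, POU2AF1 and SDC1). All these shares are near the 2.0% over all regions.

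The members were spread over many genes. They had 1045 different nearest protein-coding genes, 925 of them with 1 member, 101 with 2 and 19 with 3 or more. Counted by the nearest start of any kind, no gene had more than 3 members, and 3 genes had that many. NFATC2, a calcium-regulated factor of lymphocytes, had 3 of its 9 regions among the members, with mean differences of -0.67 ± 0.37, -0.58 ± 0.45 and -0.54 ± 0.31. The region at -0.58 lies in an intron of ATP9A, 56.8 kb from the NFATC2 start. By nearest protein-coding start NFATC2 had 3 of 13. TIAM1, an exchange factor for the GTPase Rac, had 3 of 13, all within a stretch of chromosome 21 from 32925074 to 32944662, and the non-coding gene RP11-697H10.1 had 3 of 9, all inside MAML2. By chromosome, members made up 2.70% of the regions on chromosome 3, the highest share, and 0.646%, 0.739% and 0.372% on chromosomes 17, 19 and 22. Those 3 chromosomes had the highest median GC content of their regions, at 59.3%, 62.3% and 60.7%.

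Few members lay at promoters. A promoter here is a region over a transcript start or the 2.5 kb upstream of it. Promoters made up 16.3% of the members (194 of 1189), 33.4% of all regions at the minimum and 23.7% of the regions of the mirrored rule. Introns held 41.4% of the members and 30.8% of all regions, space outside genes 36.5% and 30.1%, and exons 5.80% and 5.72%. The median distance to the nearest protein-coding start was 38.1 kb for members and 18.5 kb for all regions, and 44.7% of the members were over 50 kb away (32.2% of all). Once promoters were set aside, the median distance to the nearest start of any kind was 13.9 kb for members and 13.4 kb for all.

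The members were also poor in G and C. The central 300 bases had a median GC content of 43.3% in members, 51.3% in all regions and 50% in the mirrored set, and among distal regions alone the values were 43.0%, 47.3% and 49.3%. The share of regions that were members was 5.15% where GC was under 40%, 3.31% from 40 to 45%, 1.98% from 45 to 50%, 1.73% from 50 to 55%, 1.04% from 55 to 60% and 0.411% at 60% or more. Width differed little, with medians of 621 and 651 bases.

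Base composition moved with the difference in regions at large as well. Over all regions under 45% GC the median difference was -0.14 in Karpas620, -0.11 in OPM2 and -0.19 in RPMI8226, and 0.02 in KMS27, -0.06 in L363 and 0.01 in MM1S. Over regions of 60% GC or more it was 0.03 in Karpas620, 0.00 in OPM2 and 0.07 in RPMI8226, and -0.04 in KMS27, -0.04 in L363 and -0.13 in MM1S. Karpas620, OPM2 and RPMI8226 thus carried a tilt towards lower values in AT-rich regions. In MM1S and KMS27 regions of 60% GC or more were lower than those under 45%, but the trend was not a straight one. Under 40% GC their medians were -0.07 and 0.01, beside 0.07 and 0.13 from 45 to 50%. In every pair the median under 40% GC was below that from 45 to 50%. With the GC trend subtracted in each pair, a step added after the data had been seen, the rule gave 1006 members, 849 of them shared with the 1189, of which 17.2% lay at promoters. The median in the unused pair was then -0.27, beside 0.00 for all regions.

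**Figure D3:**
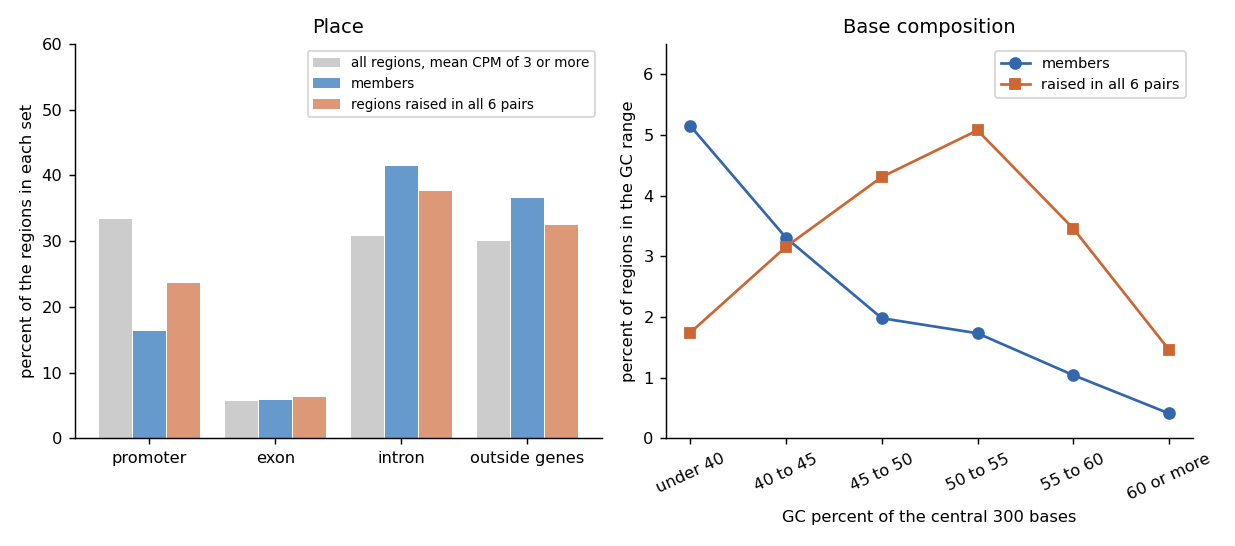
Left, the percent of regions at promoters, in exons, in introns and outside genes for all 59431 regions (grey), the 1189 members (blue) and the 1794 regions higher in all 6 pairs (orange). Right, the percent of regions in each GC range that were members (blue circles) or met the mirrored rule (orange squares): the members' share is 5.15% under 40% GC and 0.411% at 60% or more, while the mirrored set is highest from 50 to 55%.

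The Ikaros core word was less common in the members than in regions at large. Either strand of the central 300 bases held GGGAA in 42.5% of the members (95% Wilson interval 39.7 to 45.3%), in 60.6% of all regions and in 74.5% of the mirrored set. In distal regions the shares were 41.0%, 58.5% and 73.6%. Within every GC range the members were below all regions: 35.4% and 45.02% under 40% GC, 40.6% and 54.3% from 40 to 45%, 42.7% and 61.3% from 45 to 50%, 56.2% and 64.3% from 50 to 55%, 51.2% and 68.2% from 55 to 60%, and 50.7% and 65.6% at 60% or more.

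The number of copies ordered the regions too. Members were 2.92% of the windows with no GGGAA, 1.76% of those with 1, 1.05% of those with 2 and 0.634% of those with 3 or more, whereas the mirrored set was 1.95%, 2.92%, 4.19% and 6.05% of the same windows. Over all distal regions, without regard to the rule, those with the word had a higher median difference than those without it in 6 of 6 pairs, by 0.13 in Karpas620, 0.15 in KMS27, 0.08 in L363, 0.08 in MM1S, 0.12 in OPM2 and 0.09 in RPMI8226. Such a word of 5 bases occurs often by its base composition alone, and its presence is not a binding site.

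The ETS word GGAAGT went the same way as the Ikaros word, at 16.6% of distal members, 22.2% of all distal regions and 30.8% of the mirrored ones. Several other words were more frequent in members. The AP-1 word TGANTCA was in 21.6% of distal members, 15.03% of all distal regions and 16.9% of the mirrored distal regions, and the share was also higher in members within each GC range (22.6% and 17.9% of distal regions under 40% GC, 25.2% and 14.8% from 50 to 55%). Over all distal regions, without regard to the rule, the median difference with this word minus that without it had no common sign. It was 0.02 in Karpas620, -0.05 in KMS27, -0.02 in L363, -0.02 in MM1S, 0.04 in OPM2 and -0.003 in RPMI8226. The octamer ATGCAAAT, to which the partners of POU2AF1 bind, was in 4.82% of distal members, 3.04% of all distal regions and 3.29% of the mirrored distal regions. This AT-rich word was not read within GC ranges. The interferon-stimulated response word TTTCNNTTT was in 28.8% and 24.0%, but also in 27.9% of the mirrored distal regions, and was not read within GC ranges. The RUNX word TGTGGT was in 37.1% and 33.0%. It was more frequent still, at 43.2%, in the mirrored set, and from 55 to 60% GC lower in members than in all distal regions (29.7% and 36.8%). Words rich in G and C were rare in distal members: GGGCGG, the GC box, was in 6.03% and in 10.96% of all distal regions, and the CTCF core AGGGGGCGC in 0.201% and 1.07%. The GC box was not rarer in every GC range, at 16.8% of distal members and 11.2% of distal regions from 50 to 55% GC. Words overlap each other and track base composition, and no match says only that these letters were not in the window.

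**Figure D4:**
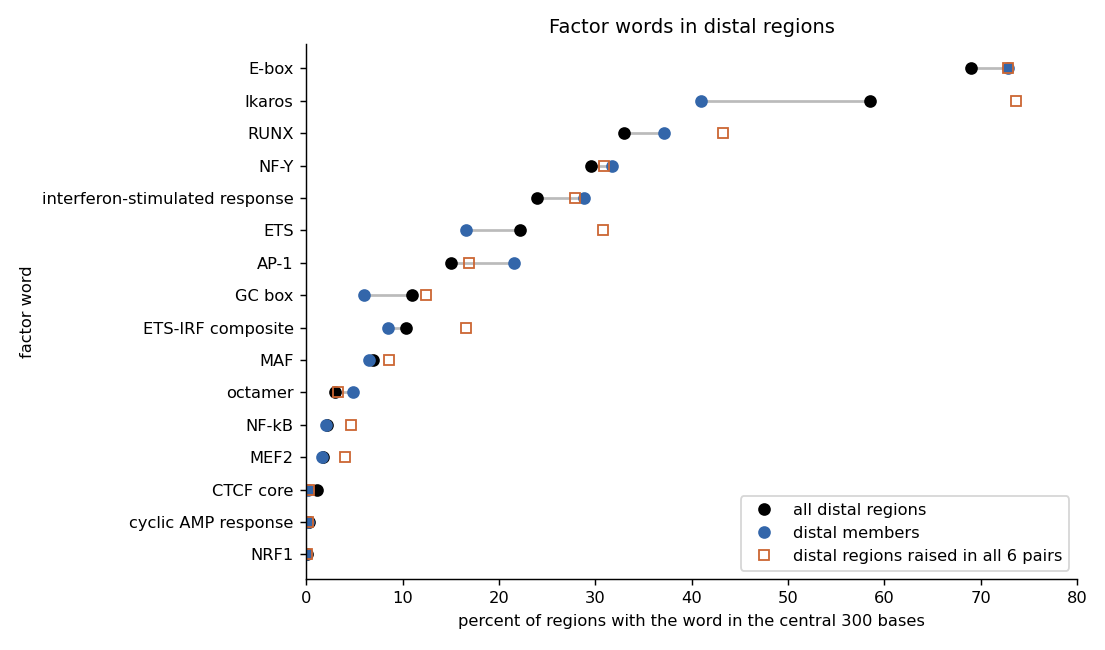
Percent of distal regions whose central 300 bases hold a factor's word on either strand, for 16 words: all distal regions (black), distal members (blue) and distal regions higher in all 6 pairs (open orange squares), with a grey line joining members and all regions. The Ikaros word stands out, with members at 41.0%, all regions at 58.5% and the mirrored set at 73.6%, and the AP-1 word is higher in members.

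The 16 lines that took no part in the choice show where the members stood without the drug. Their mean log2(CPM + 1) over these lines had a median of 2.75, beside 2.67 for all regions and 2.31 for the mirrored set. Among distal regions, members were at 2.74 and all regions at 2.42, while at promoters members had a median CPM of 8.19 and all regions 15.4. A member was called as a peak in a median of 6 of the 16 lines, as was a region of any kind, and in 7 of 16 against 5 among distal regions. Only 35 members (2.94%) were called in none of these lines and 51 (4.29%) in all 16, against 7.05% and 11.2% of all regions, and 30.8% were called in 1 to 4 lines, against 33.4% of all. Between lines they varied more: the SD of log2(CPM + 1) over the 16 lines had a median of 1.12 for distal members and 0.98 for all distal regions.

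The median CPM of the members in the 16 lines ran from 3.83 in U266 through a median of 6.21 to 10.2 in H1112, the deepest library. In the untreated libraries of the 6 paired lines it ran from 3.82 (Karpas620) to 8.58 (MM1S), with a mean of 5.99 ± 1.93 (SD, n = 6). With lenalidomide it ran from 1.96 (Karpas620) to 4.72 (MM1S), with a mean of 3.18 ± 1.13 (SD, n = 6). The lines kept their order except that KMS27 and OPM2 changed places, and 4 of the 6 treated libraries stood below every untreated library of the 22 lines, while KMS27 (4.10) and MM1S (4.72) did not. The low standing of the treated libraries is favoured by the selection, which was made on them. The mean untreated level of the 6 paired lines minus the mean of the 16 others had a median of 0.03 over the members. For the mean lenalidomide level of the 6 lines that median was -0.66, but both use libraries on which the members were selected.

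The regions chosen without a given pair allow this to be read free of the choice. In the unused line, untreated, their median level relative to the 16 others was -0.78 in Karpas620, -0.43 in KMS27, -0.28 in L363, 0.09 in MM1S, -0.19 in OPM2 and -0.47 in RPMI8226. With lenalidomide it was -1.12, -0.51, -0.66, -0.28, -0.54 and -0.76 in the same order. The treated library was the lower in 6 of 6 lines, and in 5 of them the untreated library was already below the mean of the 16 lines. For all regions the same 2 quantities lay between -0.31 and 0.03, with much the same signs. Untreated, in the same order, they were -0.18, -0.31, -0.05, 0.03, -0.08 and -0.06. With lenalidomide they were -0.20, -0.19, -0.10, -0.03, -0.08 and -0.15, lower than untreated except in KMS27 and almost level in OPM2. The signs alone thus do not set the chosen regions apart.

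**Figure D5:**
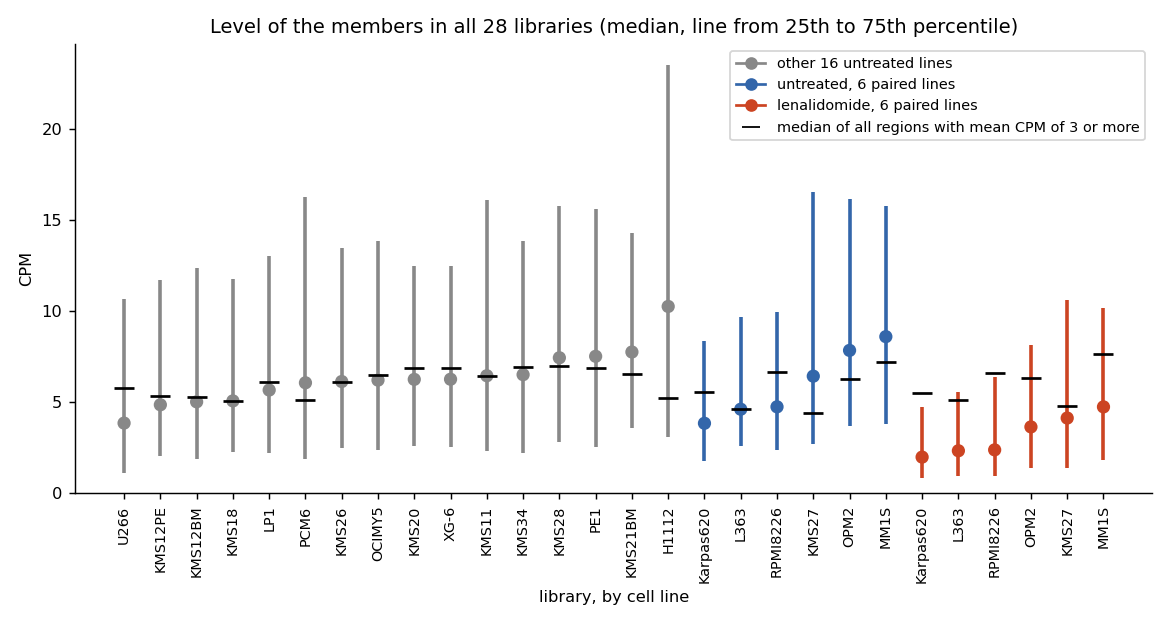
Median CPM of the 1189 members in each of the 28 libraries (dots, with lines from the 25th to the 75th percentile) and the median of all 59431 regions (black dashes): the 16 lines assayed untreated only (grey), and the 6 paired lines untreated (blue) and with lenalidomide (red). The lenalidomide medians run from 1.96 to 4.72 and lie below the dash of the same library in all 6, and the untreated medians of all 22 lines run from 3.82 to 10.2. The low standing of the lenalidomide medians is favoured by the selection of the members.

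At the edge of the rule, the members nearest the threshold were regions at RBPMS (chr8:30405590-30406137), OFCC1 (chr6:9852041-9852621) and ITPKB-IT1 (chr1:226850403-226851190), each with a mean difference of -0.50. Just outside were regions at GALC, BFSP2 and REXO1L11P, also at -0.50 to 2 decimals and below 0 in all 6 pairs. In all, 1211 regions below 0 in all 6 pairs fell short of the threshold in this way.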

How the data were processed

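ATAC-seq was performed on 22 myeloma cell lines, 6 of them also with lenalidomide. Per the submitters' processing notes and the study's methods, the authors aligned reads to GRCh37 with Bowtie2 2.2.6, used SAMtools 1.7, called peaks per library with MACS2 2.1.0.20151222 at q 0.01 and merged them into 154985 autosomal regions. Duplicate removal, insertion shift and whether reads or fragments were counted are not given in the sources used here. The deposited counts are raw reads per region and library. The deposited peak table holds a score, a whole number per region and library, taken as called where above 0.

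CPM was computed from the column totals. Groups came from the labels, and pairs from the shared cell line. Members, lists and words were chosen with earlier results of these data known. The fit across regions used edgeR 4.0.16 (R 4.3.3; quasi-likelihood test, TMM, filterByExpr, cell line as block, Benjamini-Hochberg adjustment), with DESeq2 1.42.0 as an alternative. On simulated counts for 37732 regions it recovered 148 of 200 regions changed 2-fold, with 6 false calls. Promoter, exon, intron and nearest start are the deposited annotation. Nearest protein-coding starts came from GENCODE 44 on GRCh37, in which 93.7% of the 61242 transcripts shared with the file start within 100 bases of its position. No deposited region ran past a chromosome's end. Sequences were read from GRCh37 with pysam 0.24.0, leaving out chromosome 8 and windows with over 30 bases of UTR, and 1 further window is not reported here. Words were searched on both strands of the central 300 bases.

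The regions named are the 8 with the lowest mean difference, the 5 lowest at promoters, the 5 highest in the other 16 lines, up to 4 per gene list, those of the 3 genes (by gene identifier) with most members, and 3 on each side of the threshold. Alternatives were other scalings, pseudocounts, filters, thresholds, equal depth, each pair left out and a GC correction, the last chosen after seeing the data. Intervals cover counting error only.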

Additional observations from a re-analysis of the deposited data

Results flagged for a closer look

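Among the 35 named regions and 4 summary values examined over the 6 pairs, 6 had 1 line standing apart from the other 5 in its difference, log2(CPM + 1) with lenalidomide minus untreated. Chance marks about 1 in 20 such sets where nothing was selected, a rate that does not hold here, since the regions were selected on these same differences and all had to lie below 0. L363 was the line at AFAP1 (-2.94), AIM2 (-1.42), IKZF3 (-2.02) and the TIAM1 promoter (-1.78), and Karpas620 at CCDC110 (-1.53) and POU2AF1 (-1.59). The reads behind some of these values are few, with 68 untreated reads over all 6 lines at IKZF3 and 74 at the TIAM1 promoter.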

How the results depend on the processing

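The number of members depended mostly on its own limits. It was 468 with a pseudocount of 3, 2245 with a mean CPM of 1 or more, 281 with 10 or more, 2577 with no filter on low values, 374 at -0.75 and 2031 at -0.25. It was 905 under TMM scaling (829 shared with the 1189), 1122 with pairs centred, 1571 with a pseudocount of 0.1 and 973 at equal totals within pairs (807 shared). Leaving out each pair gave 1476 to 2123, the latter without KMS27. The promoter share was 13.3% within 1 kb of a start (32.5% of all regions) and 7.65% with protein-coding starts only (24.7%), and 14.9 to 18.3% with each pair left out. The median level in the other 16 lines was 2.39 with a pseudocount of 0.1 (2.33 for all regions). The median in the unused pair lay between -0.38 and -0.27 under its 5 alternatives. Members lowered in the fit were 90 with DESeq2, 112 (without MM1S) to 270 with each pair left out, and also 132 without OPM2, 152 without KMS27, 164 without Karpas620 and 175 without L363. With no replicate block edgeR called 0 members, 27 had an unadjusted p below 0.05, and DESeq2 was run with the block only. The pairing comes from the shared cell line. The Ikaros word was in 29.4% of members in windows of 200 bases (46.0% of all), in 50% at promoters (64.8%) and in 45.8% after the GC correction. The 41 named regions are below 0 in every pair by selection, so their sign could turn only under TMM scaling, where it did not, and a pseudocount of 0.1 moved 10 of them by more than their SD between lines. The cause of these changes was not tested.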

Other observations

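Adjacent members were uncommon: 45 of the 1189 lay within 15 kb of a further member, in 22 groups of at most 3. Among these were neighbouring members in the histone gene cluster of chromosome 6 (26043505 to 26046104), nearest H2BC3 and H3C3, and on chromosome 3 (193816005 to 193819276), nearest HES1, a repressor in Notch signalling. Tandem repeats like that upstream of IFNAR1 were rare but present. In 11 members (0.925%) at least 70% of the central 300 bases equalled the base at some fixed shift of 2 to 60 positions, beside 0.294% of all regions and 1 of the 1794 regions higher in all 6 pairs (0.0557%). This measure was added after the sequences had been seen.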
